A study of Mus musculus with 2 samples.

Results

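The genes described here encode AMPA receptors, the channels that carry most fast excitatory transmission in the cerebral cortex, and the proteins that travel with them. They are 10 genes, chosen by name: the pore subunits Gria1, Gria2, Gria3 and Gria4, the transmembrane regulatory proteins (TARPs) Cacng2, Cacng3 and Cacng8, the cornichons Cnih2 and Cnih3, and Shisa9, which encodes CKAMP44. All 10 were found among the 69691 rows of the gene tables, 21461 of which are protein-coding nuclear genes. The samples are 2 RNA-seq libraries, replicate 1 and replicate 2, each from an area of about 8000 square microns cut by laser from layer 5 of the cortex of a wild-type C57Bl6 male mouse aged 8 months and entered as 50 cells. The labels number them as separate biological replicates but give both the same donor, so whether an SD below is the spread between animals or between areas of 1 animal is not known. With 1 group of 2 libraries no p-value was computed, and a difference between the areas has no replicate check. The areas hold neurons and glia together, so fewer cells of a type and less RNA per cell cannot be told apart.

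An AMPA receptor is an assembly of 4 pore subunits. RNA of the GluA2 subunit, the product of Gria2, is edited by adenosine deaminases at a codon of the pore, and receptors that hold the edited subunit pass little calcium. TARPs and cornichons bind the pore subunits, help them leave the endoplasmic reticulum and reach the synapse, and slow their closing. Each pore subunit gene also has a pair of neighbouring exons, flip and flop, of which a mature coding transcript normally keeps 1. They encode part of the ligand-binding domain, and receptors with the flop segment generally desensitise faster.

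The flip and flop exons are shown first because the transcript tables are read through them. Each is 115 bases long, and the sequences below are from the GENCODE M21 transcripts on mm10, 5′ to 3′ along the gene, with capitals at the bases where flip and flop of the same gene differ. The Gria1 exons are at chr11:57310608-57310722 (flip) and chr11:57309769-57309883 (flop) on the plus strand. Those of Gria2 are at chr3:80690404-80690518 (flip) and chr3:80691320-80691434 (flop) on the minus strand. Those of Gria3 are at chrX:41669501-41669615 (flip) and chrX:41654810-41654924 (flop) on the plus strand. Those of Gria4 are at chr9:4427030-4427144 (flip) and chr9:4432773-4432887 (flop) on the minus strand.
Gria1 flip: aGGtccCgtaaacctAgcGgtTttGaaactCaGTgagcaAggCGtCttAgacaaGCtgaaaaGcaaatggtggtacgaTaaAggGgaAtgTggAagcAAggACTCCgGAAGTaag
Gria1 flop: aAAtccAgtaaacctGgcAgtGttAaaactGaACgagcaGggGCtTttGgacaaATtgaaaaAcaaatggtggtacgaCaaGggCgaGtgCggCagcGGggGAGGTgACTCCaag
Gria2 flip: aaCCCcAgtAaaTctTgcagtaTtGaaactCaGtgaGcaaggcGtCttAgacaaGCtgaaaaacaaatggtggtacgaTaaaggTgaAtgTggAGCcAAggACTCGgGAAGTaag
Gria2 flop: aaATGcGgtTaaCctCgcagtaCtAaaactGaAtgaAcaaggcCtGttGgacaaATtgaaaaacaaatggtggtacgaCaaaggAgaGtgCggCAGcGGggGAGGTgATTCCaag
Gria3 flip: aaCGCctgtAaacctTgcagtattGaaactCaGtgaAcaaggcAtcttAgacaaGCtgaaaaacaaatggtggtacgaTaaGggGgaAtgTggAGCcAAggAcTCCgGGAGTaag
Gria3 flop: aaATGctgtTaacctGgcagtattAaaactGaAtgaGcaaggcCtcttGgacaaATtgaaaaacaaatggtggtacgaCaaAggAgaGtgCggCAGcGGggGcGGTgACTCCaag
Gria4 flip: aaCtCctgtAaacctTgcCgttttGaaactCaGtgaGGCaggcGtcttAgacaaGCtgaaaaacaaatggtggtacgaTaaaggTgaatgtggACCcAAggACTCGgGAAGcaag
Gria4 flop: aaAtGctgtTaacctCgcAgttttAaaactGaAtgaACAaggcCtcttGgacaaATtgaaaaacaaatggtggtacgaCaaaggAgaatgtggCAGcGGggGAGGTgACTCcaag

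In every gene the flop exon comes first in the direction of transcription. Flip and flop differed at 36 of 115 bases in Gria1 and in Gria2, at 32 in Gria3 and at 31 in Gria4. The codon at bases 32 to 34 encodes serine in the flip exons and asparagine in the flop exons and was used to name them. Between genes the same form is more alike than the 2 forms are within a gene. Flop exons were 87.8% to 94.8% identical between genes and flip exons 87.8% to 92.2%, against 68.7% to 73.0% between flip and flop of 1 gene.

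Gria2 led the pore subunits and Gria3 came next, with Gria1 and Gria4 well below them. Gria2 (ENSMUSG00000033981.10, chr3:80681450-80802835, minus strand) had 225 TPM in replicate 1 and 189.5 TPM in replicate 2, from 24632 and 21946 expected counts. TPM expresses a level corrected for the length of the RNA and the size of the library, and an expected count is an estimated number of reads. Gria3 (ENSMUSG00000001986.12, chrX:41400854-41678601, plus strand) had 88.9 and 83.7 TPM from 9646 and 9281 counts. Its highest value lay far under the lowest of Gria2, so these subunits differed by more than the spread between areas. Gria1 (ENSMUSG00000020524.12, chr11:57011387-57330244, plus strand), whose product is the subunit best known for its recruitment to synapses during potentiation, had 35.7 and 30.4 TPM from 4104 and 3628 counts. Gria4 (ENSMUSG00000025892.11, chr9:4417896-4796234, minus strand), a subunit known for its place in fast-spiking interneurons, had 27.7 and 23.0 TPM from 2002 and 2008 counts. Gria1 lay above Gria4 in both areas, by 1.29-fold and 1.32-fold in TPM, and their ranges did not overlap.

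By gene totals, which take in every listed transcript, the make-up of the pore subunits was nearly the same in both areas. Of the summed TPM of the 4 genes, Gria2 held 59.7% in replicate 1 and 58.0% in replicate 2, or 58.9% ± 1.18 (SD, n = 2). Gria3 held 24.6% ± 1.49, Gria1 9.38% ± 0.097 and Gria4 7.19% ± 0.21 on the same terms. Each share differed from the next by more than its SD. By transcripts with the flip or the flop exon alone, Gria3 and Gria4 were less alike between the areas than by gene totals, while Gria1 and Gria2 were not. Such transcripts came to 152 and 134 TPM for Gria2, 68.9 and 49.3 TPM for Gria3 and 35.7 and 30.4 TPM for Gria1. For Gria4 these transcripts came to 9.98 and 12.5 TPM, the only such sum that was higher in replicate 2. Gria2 stood 6.32-fold over Gria1 in replicate 1 and 6.23-fold in replicate 2, and 8.14-fold and 8.24-fold over Gria4.

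The cornichon genes lay well below Gria2, and the range of Cnih2 took in that of Gria3. Cnih2 (ENSMUSG00000024873.6, chr19:5092868-5098521, minus strand) had 52.5 TPM in replicate 1 and 91.3 TPM in replicate 2, from 1286 and 2313 counts. Cnih3 (ENSMUSG00000026514.9, chr1:181352628-181460641, plus strand) had 43.1 and 45.9 TPM from 2192 and 2425 counts. Cnih2 was above Cnih3 in both areas, at 54.9% and 66.6% of their summed TPM. By expected counts, not scaled by length, Cnih3 was the higher in both areas and the mean share of Cnih2 was 42.9%. Cnih2 lay on the other side of Gria3 in each area, under it in replicate 1 and above it in replicate 2.

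Of the 3 TARP genes described here, Cacng3 was the most abundant by TPM and Cacng8 was by far the lowest. Cacng3, for TARP γ-3 (ENSMUSG00000066189.5, chr7:122670492-122769393, plus strand), had 38.1 TPM in replicate 1 and 68.0 TPM in replicate 2, from 1969 and 3823 counts. Cacng2, for TARP γ-2 or stargazin (ENSMUSG00000019146.2, chr15:77991748-78120028, minus strand), had 17.2 and 12.7 TPM from about 1998 and 1530 counts. Cacng3 thus exceeded Cacng2 in both areas, but by 2.22-fold in replicate 1 and 5.35-fold in replicate 2. By counts not scaled by length, Cacng2 was slightly above Cacng3 in replicate 1, so the order there turned with the scale. The antisense gene A730060N03Rik shares 323 exonic bases with Cacng2 and had 136 and 92.8 counts, and without a stated strand setting reads there cannot be assigned with certainty.

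Cacng8, for TARP γ-8, which is best known from the hippocampus (ENSMUSG00000053395.11, chr7:3390683-3415648, plus strand), had 0.83 TPM from 24 counts in replicate 1 and 0.32 TPM from 13 counts in replicate 2. Scaled to the library total (CPM), the exact 95% Clopper-Pearson intervals of those counts were 0.59 to 1.37 and 0.24 to 0.79, for counting error only. It alone of the 10 genes was under 1 TPM in both areas. RefSeq places the 3′ end of Cacng8 618 bases beyond the annotation used for names here, while for the other members it lay at most 3 bases beyond. Whether reads from that stretch would raise the Cacng8 value was not tested. All 6 TARP genes of the Cacng family were measured, and Cacng3 held 65.9% and 80.2% of their summed TPM. Cacng7 had 1.5 and 1.34 TPM, Cacng4 0.18 and 2.19 TPM, and Cacng5 0.030 and 0.20 TPM, so these values, given after they were seen, were all low.

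Shisa9, whose CKAMP44 protein is known to shape short-term plasticity (ENSMUSG00000022494.9, chr16:11984113-12270902, plus strand), had 15.7 TPM in replicate 1 and 9.77 TPM in replicate 2, from 1143 and 818 counts. By mean TPM of the gene totals the order was Gria2, Gria3, Cnih2, Cacng3, Cnih3, Gria1, Gria4, Cacng2, Shisa9 and Cacng8. The ranges of Gria3 and Cnih2, of Cnih2 and Cacng3, of Cacng3 and Cnih3, and of Cacng2 and Shisa9 overlapped, so the levels of those neighbours did not differ beyond their spread over libraries. Within a library, Cnih2 was 1.38-fold and 1.34-fold Cacng3, and Cacng2 was 1.10-fold and 1.30-fold Shisa9, each the higher in both areas. The other overlapping pairs changed order, with Gria3 at 1.69 and 0.92 of Cnih2 and Cacng3 at 0.88 and 1.48 of Cnih3. All other neighbours had ranges that did not overlap. By its flip and flop transcripts alone, at 9.98 and 12.5 TPM, Gria4 lay under Cacng2 in replicate 1. In replicate 2 it was almost level with Cacng2, which had 17.2 and 12.7 TPM. Gria2 exceeded 97.6% and 97.0% of the protein-coding genes, and Shisa9 exceeded 76.4% and 69.3%.

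**Figure D1:**
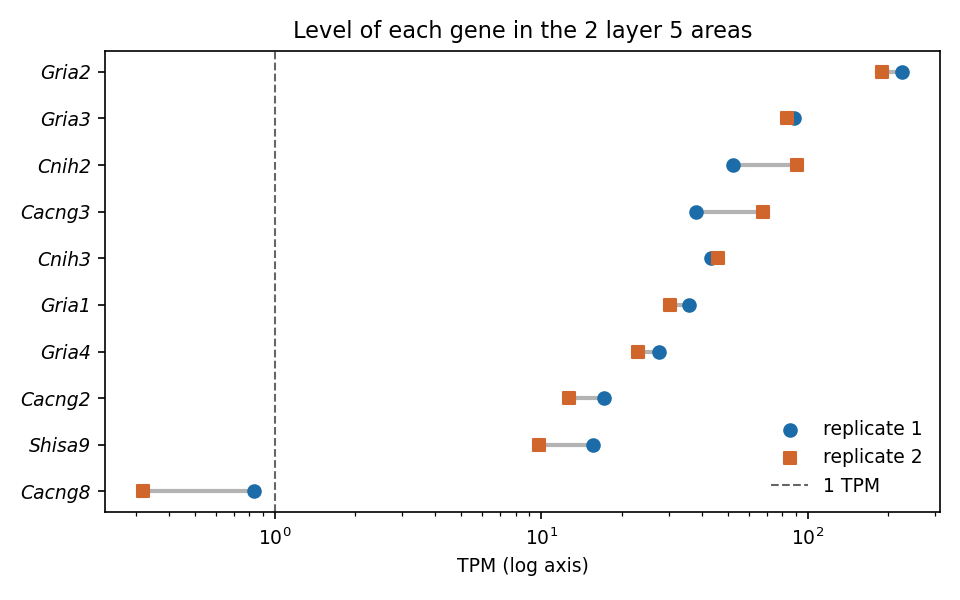
TPM of each gene on a log axis, with replicate 1 as circles, replicate 2 as squares and a grey line between them. Gria2 stands at the top at 225 and 189.5 TPM, 9 genes lie above the dashed line at 1 TPM in both areas, and Cacng8 lies under it in both.

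**Figure D2:**
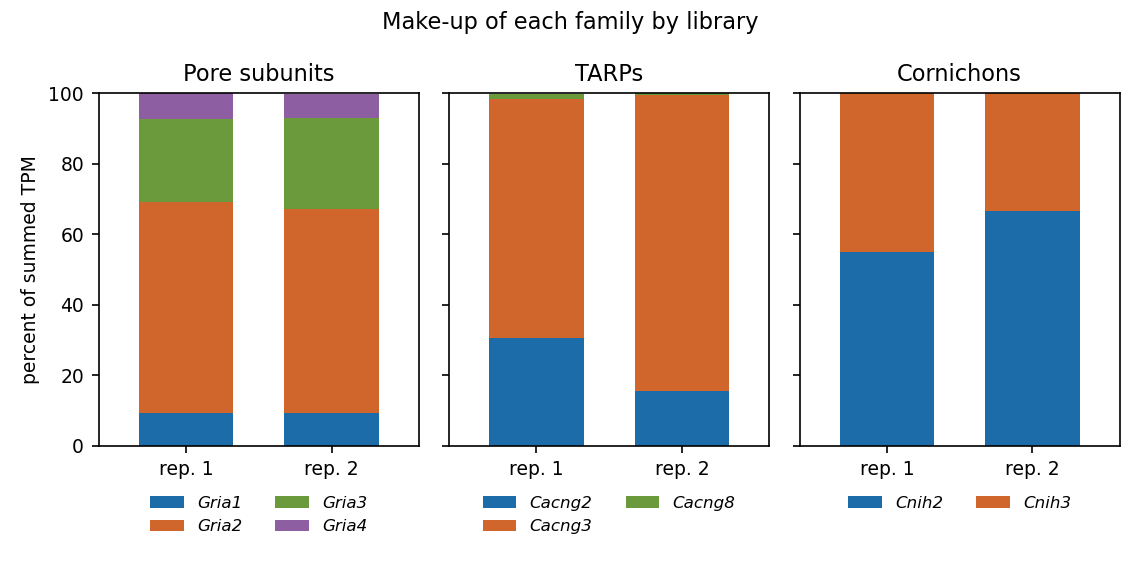
Share of each gene, in percent, in the summed TPM of the pore subunits, the 3 TARP genes and the 2 cornichon genes, 1 bar per library. The subunit bars are nearly alike, with Gria2 at 59.7% and 58.0%, while Cacng3 takes 67.9% of the TARP bar in replicate 1 and 83.9% in replicate 2.

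The partner genes divided between the areas. All 4 pore subunit genes were slightly higher in replicate 1, as were 3 of the 6 partners, Cacng2, Cacng8 and Shisa9. Cacng3 and Cnih2 were higher in replicate 2, and Cnih3 was almost level. The folds that follow are ratios of counts per library total, with exact Clopper-Pearson 95% intervals that cover counting error only. Gria1 was 1.23-fold higher in replicate 1 (1.17 to 1.28), Gria2 1.22-fold (1.20 to 1.24), Gria3 1.13-fold (1.10 to 1.16) and Gria4 1.08-fold (1.02 to 1.15). These are small steps: on the log2(TPM + 1) scale, which understates changes of low genes, they ran from 0.084 for Gria3 to 0.26 for Gria4. With CPM in place of TPM they were 0.17 for Gria3 and 0.11 for Gria4, so the order of these subunits turned with the scale. The estimated mean length of Gria4 RNA, by which TPM is scaled, was 3456 bases in replicate 1 and 4024 bases in replicate 2.

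Cacng3 was 1.79-fold higher in replicate 2 (1.69 to 1.89) and Cnih2 1.66-fold (1.55 to 1.78). Among the 8498 protein-coding genes whose mean reached 5 TPM, 90.0% had a smaller absolute log2 ratio than Cacng3 and 89.2% a smaller one than Cnih2. Shisa9 went the other way and was 1.52-fold higher in replicate 1 (1.38 to 1.66), with 82.2% of those genes showing a smaller ratio, and Cacng2 was 1.42-fold higher there (1.33 to 1.52). Cnih3 had a ratio of 0.98 (0.93 to 1.04), an interval that includes no difference. So does that of Cacng8, at 2.00-fold higher in replicate 1 (0.98 to 4.28), where 24 and 13 counts leave the ratio loose.

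A size rule of 2-fold on TPM + 1 was applied where the mean reached 1 TPM, as it did for 9 of the 10 genes. None of the 9 was beyond 2-fold. Over the 11828 protein-coding genes tested, 10.3% were, with 5.00% higher in replicate 1 and 5.32% higher in replicate 2. Beyond 1.5-fold lay 3 of the 9, Shisa9 higher in replicate 1 and Cacng3 and Cnih2 higher in replicate 2. The share over all tested genes was 26.7%, with 11.6% higher in replicate 1 and 15.1% higher in replicate 2, so 3 of 9 is near the background. The median log2 ratio of the 9 genes was 0.22 and that of all tested genes was -0.046.

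**Figure D3:**
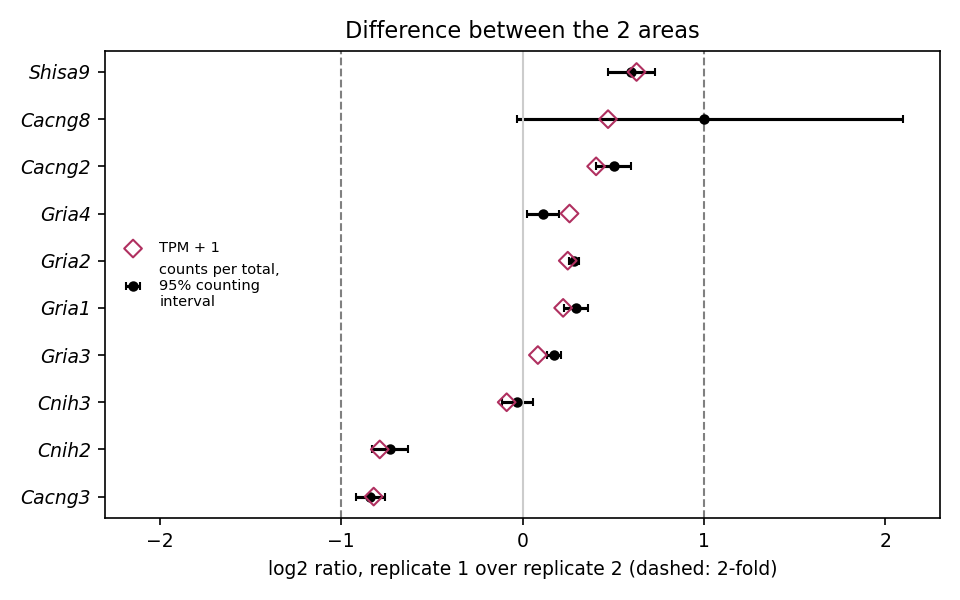
log2 ratio of replicate 1 over replicate 2 for each gene, as counts per library total with 95% counting intervals (black) and as TPM + 1 (open diamonds), with dashed lines at 2-fold. Cacng3 and Cnih2 lie to the left at -0.82 and -0.79 on the TPM + 1 scale, the 4 pore subunit genes lie just right of 0, and the interval of Cacng8 is the widest.

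With the subunits lower and Cacng3 and Cnih2 higher in replicate 2, the summed TARP and cornichon RNA per pore subunit RNA was higher there. By gene totals, which take in every listed transcript, the pore subunit genes together came to 378 and 327 TPM in replicates 1 and 2. The 3 TARP genes summed to 56.0 and 81.0 TPM, and the 2 cornichon genes to 95.7 and 137 TPM. TARP RNA was thus 0.15 of subunit RNA in replicate 1 and 0.25 in replicate 2, and cornichon RNA 0.25 and 0.42. Single partners went both ways on this measure. Cacng3 was 0.10 and 0.21 of subunit RNA, Cnih2 0.14 and 0.28, and Cnih3 0.11 and 0.14. Cacng2 had 0.045 and 0.039, Shisa9 0.041 and 0.030, and Cacng8 0.0022 and 0.00098, all lower in replicate 2.

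Marker genes of cell types also differed between these areas, and their part in the member differences was not tested. For the counts beyond 2-fold here and in the next paragraph, the share over all tested genes was 5.00% higher in replicate 1 and 5.32% higher in replicate 2. A count of 1 in such a short list is near that background. Of 8 pan-neuronal markers, 8 were higher in replicate 2 by TPM, with summed levels of 8752 TPM in replicate 1 and 10251 TPM in replicate 2. Of 8 excitatory markers 7 were higher in replicate 2 by TPM, with sums of 1403 and 1609 TPM. Among those, Slc17a7, for a vesicular glutamate transporter, was at 56.2 and 112 TPM, and it was picked out with its value known. The median log2 ratios of these lists were -0.25 and -0.31, against -0.046 over all tested genes. Stmn2, a pan-neuronal marker, was near level at 554 and 561 TPM. By counts per library total, Stmn2 and the excitatory marker Camk2a were each 1.02-fold higher in replicate 1, both picked out with their values known. Of 12 GABAergic markers 11 were tested, 5 of them beyond 2-fold higher in replicate 1: Gad1, Pvalb, Kcnc1, Tac1 and Erbb4, the last picked out with its value known. Pvalb, which marks fast-spiking interneurons, had 918 and 145 TPM, while Sst went the other way at 194 and 2859 TPM. The GABAergic markers summed to 1815 and 3202 TPM, and that rise rests on Sst: without it the other 11 summed to 1621 and 343 TPM.

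Markers of glia and vessels moved as well. Oligodendrocyte markers summed to 580 TPM in replicate 1 and 1117 TPM in replicate 2, with 6 of 8 beyond 2-fold higher in replicate 2. Microglial markers summed to 263 and 88.0 TPM with 7 of 8 beyond 2-fold higher in replicate 1. Astrocyte markers, at 1212 and 1373 TPM, had 0 of 7 tested genes beyond 2-fold. Endothelial and mural markers, at 115 and 51.9 TPM, had 3 of 6 tested genes beyond 2-fold, all higher in replicate 1. Pecam1 of this list, picked out with its value known, went the other way at 1.28 and 2.32 TPM. The 6 oligodendrocyte precursor markers summed to 11.2 and 31.5 TPM with 1 of 2 tested genes beyond 2-fold. That gene was Olig1, which held most of the rise at 8.51 and 27.4 TPM. Sox10, Gpr17 and C1ql1 were also higher in replicate 2. Pdgfra had 0.71 TPM in both areas and Cspg4 had 0.31 and 0.12 TPM, all but Olig1 and Sox10 picked out with their values known. No marker had 0 counts in both areas. All 8 layer 5 markers reached 1 TPM in both areas, with Pcp4, for a calmodulin-binding peptide, at 2922 and 3599 TPM and list sums of 3109 and 3815 TPM. Of these, 2 were beyond 2-fold higher in replicate 1, Parm1 at 30.7 and 9.03 TPM and Crym at 7.88 and 1.89 TPM, both picked out with their values known. In the other direction, 1 was beyond 2-fold, Rbp4 at 42.1 and 88.2 TPM.

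Gria1 was read mostly in its flop form. Its flop transcript Gria1-202 had 25.0 and 18.2 TPM in replicates 1 and 2, and its flip transcript Gria1-201 had 10.7 and 12.2 TPM. Flip was 29.9% of flip plus flop in replicate 1 and 40.2% in replicate 2, or 35.0% ± 7.28 (SD, n = 2). The tables also give a lower and an upper bound of each TPM, whose level is not stated. For flop they were 22.3 to 26.03 in replicate 1 and 15.4 to 19.9 in replicate 2, which do not overlap, and for flip 8.85 to 12.2 and 9.75 to 13.8, which do. The listed Gria1 forms are nearly equal in length, 5546 and 5399 bases, and end within 1 base of each other. The bounds describe reads within a library and belong to the posterior mean estimate: for Gria2 in replicate 1 the TPM of 225 lay above its own upper bound of 223.

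Of the flip and flop forms of Gria2, flip was the higher on the TPM scale. The flip transcript Gria2-202 had 107 and 92.2 TPM and the flop transcript Gria2-201 had 45.1 and 41.7 TPM. Flip was 70.4% of flip plus flop in replicate 1 and 68.9% in replicate 2, or 69.6% ± 1.05 (SD, n = 2), so the areas were close. This share rests on the listed lengths. The flop transcript is 10371 bases long with a last exon of 7265 bases, while the flip transcript is 4026 bases long with a last exon of 920 bases. By expected counts, not scaled by length, flip was 46.7%, so the order of the forms turned with the scale. The annotation pairs flop with the long 3′ end and flip with the short one, and from these tables the choice of exon and the choice of 3′ end in Gria2 cannot be told apart.

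Gria3 had almost no transcript listed as flop alone. The flip transcript Gria3-201 held 77.6% of the gene's TPM in replicate 1 and 58.5% in replicate 2 (68.9 and 48.9 TPM). The 2 flop transcripts had 0 TPM in replicate 1 and 0.32 TPM in replicate 2, all in Gria3-202. The rest was mainly Gria3-206, a transcript with both exons that is annotated as a target of nonsense-mediated decay, at 19.3% and 34.8% (17.2 and 29.1 TPM). Its bounds were 10.5 to 22.9 TPM in replicate 1 and 23.0 to 32.8 TPM in replicate 2, so they lay just apart. Gria3-208, annotated as a retained intron, has an exon that runs over the flop exon and held 2.09 and 5.26 TPM.

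How much Gria3 flop there is therefore depends on how these transcripts are counted. Both flop transcripts of Gria3 are listed with last exons of 246 bases, while those of Gria3-201 and Gria3-206 have 2262 and 2259 bases, so no listed transcript joins flop alone to the long 3′ end. Counting the transcript with both exons as flop, an alternative chosen after seeing the data, gave flip shares of 80.1% and 62.4% in place of 100% and 99.3%. With the read-through transcript counted as flop as well, they were 78.2% and 58.5%. Under each of these counts flip was lower in replicate 2 than in replicate 1.

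Gria4 was the subunit whose forms were least settled. The flop transcript Gria4-201 had 6.89 and 12.5 TPM in replicates 1 and 2, and the flip transcript Gria4-202 had 3.09 TPM and 0 TPM. In replicate 1 the bounds were 1.81 to 8.71 TPM for flop and 0.85 to 7.65 TPM for flip, so the forms could not be separated there. In replicate 2 they were 9.95 to 12.6 TPM for flop, and flip had an upper bound of 1.88 TPM. Flop was thus the higher form in replicate 2, and the flip share of 15.5% ± 21.9 (SD, n = 2) spans values of 31.0% and 0%.

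A further Gria4 transcript, Gria4-203, ends before the flip and flop exons. It has 11 exons and 433 coding codons, against 17 exons and 902 codons in the full forms. It had 17.7 TPM in replicate 1 and 10.5 TPM in replicate 2, or 64.0% and 45.7% of the gene. It was the leading Gria4 transcript in replicate 1, and Gria4-201 led in replicate 2 at 54.4%. Summed over both full-length forms, Gria4 had 9.98 and 12.5 TPM, so the gene total of 27.7 and 23.0 TPM and the full-length forms went in opposite directions between the areas.

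**Figure D4:**
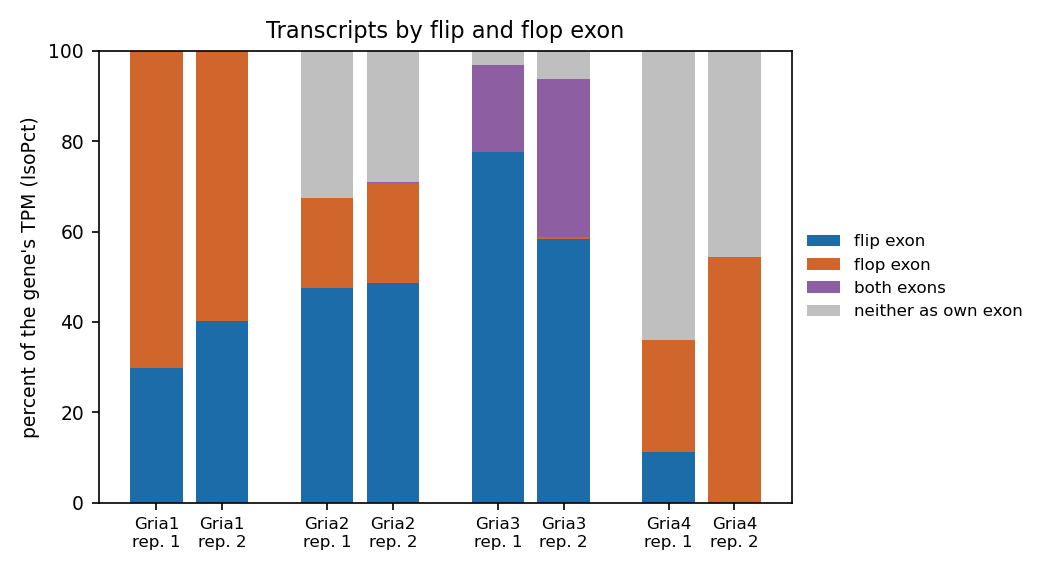
Percent of each pore subunit gene's TPM in transcripts that hold the flip exon, the flop exon, both or neither as an exon of its own, 1 bar per library. Gria1 is mostly flop at 70.1% and 59.8%, flip is the largest form of Gria2 at 47.5% and 48.7% and of Gria3 at 77.6% and 58.5%, and the largest share of Gria4 in replicate 1 lies in a transcript with neither exon at 64.0%.

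Retained-intron transcripts were a large part of Gria2. Its 5 such transcripts held 32.5% of the gene's TPM in replicate 1 and 29.0% in replicate 2, or 30.8% ± 2.47 (SD, n = 2). Most of this was Gria2-206, at 60.9 and 48.5 TPM, whose annotated end lies in the intron 86 bases before the flop exon. Gria2-204, which ends further upstream, had 11.6 and 6.50 TPM. Retained-intron transcripts held 3.12% and 6.37% of Gria3. Over the protein-coding transcripts alone Gria2 had 152 and 134 TPM, still above the Gria3 total of 88.9 and 83.7 TPM.

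The partner genes were simpler. Cacng2 and Cnih2 have 1 listed transcript each. The leading transcript was the same in both areas for Cacng3 (85.6% and 91.9%), Cnih3 (87.4% and 88.4%) and Shisa9 (68.6% and 82.7%). Shisa9 also had a non-coding transcript of 1196 bases, Shisa9-204, at 3.86 and 1.35 TPM, and its protein-coding transcripts alone came to 11.8 and 8.41 TPM. In all, the leading transcript was the same in both areas for 8 of the 10 genes, the exceptions being Gria4 and Cacng8. For Cacng8 the split between 2 transcripts rests on 24 and 13 counts.

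The wider set of AMPA receptor partners was present as well. Of 26 listed genes, 21 reached 1 TPM in both areas. The most abundant were Olfm1, a secreted noelin, at 524 and 642 TPM, Nrn1, which encodes neuritin, at 238.5 and 341 TPM, Abhd12, a lipase, at 215 and 244 TPM, and Cnih1, another cornichon gene, at 177 and 156 TPM. Of the 23 tested, 1 was beyond 2-fold higher in replicate 1 and 3 were so in replicate 2. Over all tested genes these shares were 5.00% and 5.32%, so with 23 genes the counts are not far from the background. Those 3 were Prrt2, a presynaptic and AMPA receptor-associated protein, at 37.5 and 90.4 TPM, and, named after their values were seen, Cacng4 and Shisa6, with Shisa6 at 0.020 and 2.00 TPM. The 1 was Vwc2, also named afterwards, at 7.04 and 1.04 TPM. The median log2 ratio of the 23 was -0.29, against -0.046 over all tested genes, with 16 of them higher in replicate 2.

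Scaffold and trafficking genes went both ways between the areas, 12 of the 21 tested being higher in replicate 1 and 9 in replicate 2. Of 22 listed, 20 reached 1 TPM in both areas, led by Nsf, an ATPase of membrane fusion that binds GluA2, at 259 and 293 TPM, and Rab11a, a GTPase of recycling endosomes, at 211 and 193 TPM. Camk2a and Camk2b, subunits of the kinase that drives synaptic potentiation, had 155 and 194 TPM and 134 and 129 TPM. Of the 21 tested, 1 was beyond 2-fold, Arc, whose product promotes AMPA receptor endocytosis, at 7.31 and 16.3 TPM, against 10.3% of all tested genes. The scaffold gene Dlg4, for PSD-95, picked out with its value known, had 3.07 and 6.01 TPM. The median log2 ratio of the list was 0.057. Among the editing enzymes, Adarb1, whose product edits the GluA2 pore codon, had 23.5 and 32.1 TPM, Adar had 9.90 and 10.9 TPM, and Adarb2 had 0.85 and 1.08 TPM. Editing itself was not read here, since the tables hold no bases of reads.

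AMPA receptor subunit RNA exceeded that of the other ionotropic glutamate receptors. The 7 NMDA receptor subunit genes summed to 171 and 210.2 TPM and the 5 kainate receptor subunit genes to 33.7 and 40.9 TPM. The AMPA sum was 2.21-fold and 1.55-fold the NMDA sum, and 11.2-fold and 7.99-fold the kainate sum. The lowest AMPA sum, 327 TPM, lay above the highest of either family. All these sums are gene totals. The AMPA sums take in Gria2 retained-intron transcripts at 73.25 and 54.99 TPM, Gria3-206 at 17.2 and 29.1 TPM and Gria4-203 at 17.7 and 10.5 TPM. A comparison of the families without such transcripts was not made. The obligatory NMDA subunit gene Grin1 had 81.7 and 127 TPM, under Gria2 in both areas, and Grin2b had 67.4 and 53.5 TPM. Grin3a was the only one of 5 tested NMDA genes beyond 2-fold on TPM + 1, at 4.53 and 11.5 TPM, and none of the 5 kainate genes was. Of the kainate genes Grik3 came closest, at 2.15 and 4.94 TPM, which is beyond 2-fold without the pseudocount. With 10.3% of all tested genes beyond 2-fold, counts of 1 and 0 in lists of 5 are near the background.

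**Figure D5:**
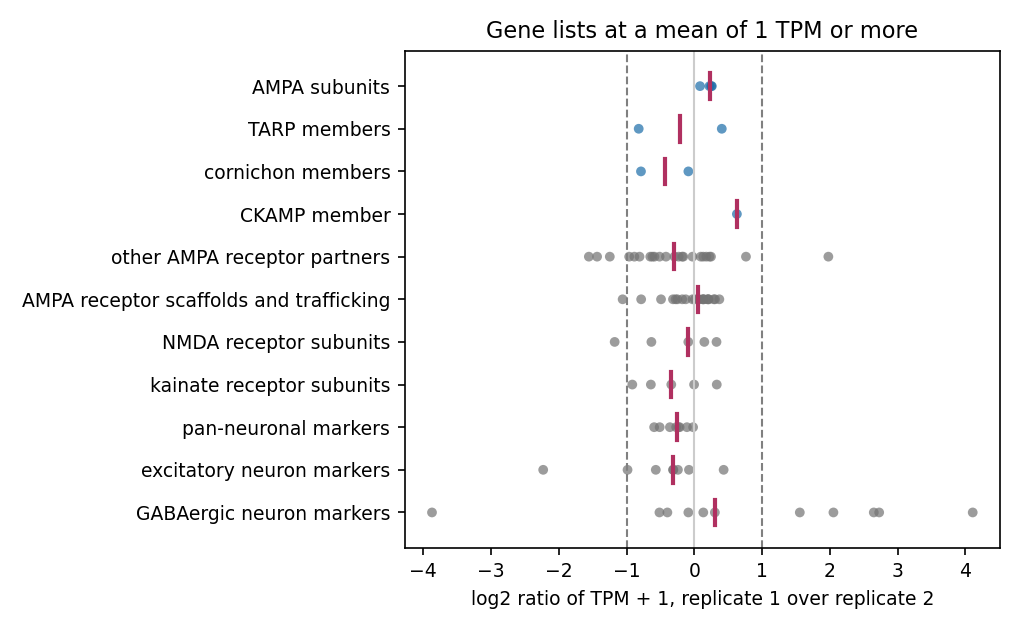
log2 ratio of TPM + 1, replicate 1 over replicate 2, for each gene whose mean reached 1 TPM, by list, with a bar at each list's median and dashed lines at 2-fold. The 4 pore subunit genes sit within a narrow band just right of 0, while Cacng3 and Cnih2 lie at -0.82 and -0.79 and the GABAergic markers spread widest.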

How the data were processed

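Per the labels' protocols, the 2 libraries were made by a method of the Smart-seq kind. The deposited tables give expected counts, estimated reads per feature that need not be whole, TPM, scaled by the authors over all features with spike-ins, and, for transcripts, the percent of the TPM of their gene. The deposited bounds of TPM were treated as a score, since their level is not stated. Assembly mm10 and annotation M4 are named in text files deposited with the tables. The program, aligner and strand setting are not given in the sources used here. Depth was 26059117 and 28276843 expected counts in replicates 1 and 2. The intervals describe the counting error of reads alone. Because no molecular identifiers were used, amplified copies of a molecule count as separate reads, so the intervals can be too narrow for molecules. Rows that name no gene, spike-ins among them, held 7.19% and 7.94% of the counts and stayed out of lists and tests.

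Names, exons and coordinates came from GENCODE M21 on the same assembly. Of 39 transcripts of the 10 genes, 37 had the length that M21 gives; Cnih2-201 and Gria4-202 did not, and the latter was taken to hold the flip exon as in M21. A transcript was classed by whether it held a flip or flop exon as an exon of its own. Differences are log2 ratios with a pseudocount of 1 TPM. For an alternative with CPM, expected counts of nuclear genes were rounded and TMM factors computed with edgeR 4.0.16 (R 4.3.3). The rest was done in Python 3.11.15 (scipy 1.17.1, pandas 2.3.3, numpy 2.4.6; plots by matplotlib 3.10.9).

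The genes and lists were chosen with earlier results of these data known. All 10 genes were named, with the 4 most abundant of each other gene list and those beyond 2-fold with a mean of at least 5 TPM; for markers the rule took the 2 most abundant and those beyond 2-fold with a mean of at least 20 TPM, of which a part is given. No genes of like pattern were named, because with 2 libraries a pattern is a single ratio. Alternatives were other pseudocounts, minimums, folds, scalings and estimates, and leaving out each library.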

Additional observations from a re-analysis of the deposited data

How the results depend on the processing

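Of 50 recomputed log2 ratios of single genes (10 genes under a pseudocount of 0.1, CPM, TMM-scaled CPM, TPM of nuclear genes alone and posterior mean TPM), 0 changed sign and 44 moved by less than the margin of their counting interval to either side. The ratios that moved further were all of pore subunit genes, under CPM or TMM-scaled CPM. No gene of the 9 or 10 tested was beyond 2-fold under these settings, at a mean of 5 TPM or with no minimum. Beyond 1.5-fold there were 3. Cacng8 was tested only with no minimum, at a pseudocount of 1. With a pseudocount of 0.1, where the minimum left it untested, its log2 ratio was 1.15, which is beyond 2-fold. The number of genes at 1 TPM and their order were kept under posterior mean TPM. Over all tested genes the share beyond 2-fold was 6.11% (223 and 296 genes higher in replicates 1 and 2) at a mean of 5 TPM and 14.7% (1004 higher in replicate 1 and 856 in replicate 2) with TMM-scaled CPM, against 10.3% (1220 genes). Shares within families depended on length scaling: by expected counts Gria2 held 60.3% of the pore subunits, Cacng3 60.3% of the TARP genes and Cnih2 42.9% of the cornichon genes, so that Cnih3 then led, and the Gria2 flip share was 46.7%. The Gria3 flip share was 71.2% with the transcript that holds both exons counted as flop and 93.4% with the read-through transcript counted so, both chosen after seeing the data. The Gria4 flip share was 27.0% with posterior mean percents, 31.0% without replicate 2 and 0% without replicate 1. Depth limits Cacng8, where a count of 0 would have allowed up to 0.12 and 0.11 CPM. No paired analysis was possible because there is 1 group.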
